A study of Mus musculus with 16 samples.

Results

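A set of 9 genes that glucocorticoids are known to induce, or that carry the response, were followed across splenic CD4+ T cells of mice lacking the kinase IKK2 or its regulatory partner NEMO in T cells, with and without nephritis. They are Nr3c1, Tsc22d3, Ddit4, Dusp1, Arrdc3, Fkbp5, Per1, Klf9 and Txnip. All 9 had a probe on the array, 11 probes in all, and all 9 were among the 14688 genes tested. The set was chosen by measured values of these arrays, the nephritis response of Tsc22d3, Ddit4, Dusp1 and Arrdc3 in the IKK2 knockout, so the nephritis differences of the 9 genes, and differences between them, are a description. Where the number of the 9 genes past limma's threshold in those comparisons is printed, it stands beside the share of all genes only to show the values behind the choice, and nothing is drawn from it. Differences between genotypes averaged over both conditions did not themselves enter that choice and were tested. Averages with the IKK2 knockout still hold the nephritic arrays behind the choice, so a call there can carry the chosen nephritis difference.

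The groups were IKK2 knockout mice (CD4-Cre with IKK2fl/fl) with nephritis and untreated, 3 arrays each, NEMO knockout mice (CD4-Cre with the floxed NEMO allele, written NEMOfl/f in the labels) with nephritis and untreated, 2 arrays each, and control mice carrying CD4cre alone with nephritis and untreated, 3 arrays each. All mice were males of 8 to 10 weeks, and every group, controls included, carried the Cre transgene. Nephrotoxic serum nephritis (NTN) was induced by intraperitoneal injection of 2.5 mg of sheep serum per g of body weight, and organs were taken on day 10. Untreated mice carried the label of no inflammation. A mock injection is not mentioned in the labels. The CD4 promoter drives Cre from the thymocyte stage that makes both CD4 and CD8, so the deletion is not limited to CD4+ cells, and no label says that the arrays within a group are different animals. What the p-values measure is therefore the spread among these arrays alone, and that spread may be technical.

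Glucocorticoids bind the receptor encoded by Nr3c1, a transcription factor that waits in the cytoplasm in a complex with heat shock proteins and immunophilins, enters the nucleus with its ligand and acts on DNA directly or by holding back other factors such as NF-kB. In T cells the response limits cytokine production, changes trafficking and, at high doses, leads to cell death. Most of the 9 genes also answer to other signals, among them FOXO factors, hypoxia, mitogens, glucose and the circadian clock, so a change in them does not identify the hormone as its source.

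To show the regulatory context of the genes, the window running from upstream of each annotated start site to just past it was searched in RefSeq (GRCm38.p6). A total of 13 such windows matched 8 of the 9 genes. The letters searched, on both strands, were chosen with the results known: GNACANNNTGTNC (the core of the palindrome the receptor binds), AGAACA (a single arm of it, which can overlap the palindrome), TGACGTCA (the cAMP response element), CACGTG (the E-box) and GTAAACA (the core of the FOXO site). Over 32851 windows of the same length, they were found in 0.475%, 19.0%, 1.79%, 7.15% and 3.65% of windows. The windows of Ddit4 and all 3 of Arrdc3 held none of these letters. Those of Fkbp5 and Klf9 held 1 motif each, an E-box at -169 and a FOXO core at -100 bases from the start site. The windows printed below hold at least 1 motif, given in capitals. They belong to genes for which all nephritic IKK2 knockout arrays were above every other array. For Klf9, whose mean was also highest in nephritic IKK2 knockout cells, these arrays overlapped the Cre arrays, and its window is not printed. Dusp1 held a cAMP element at -143 and an E-box at -126 bases from the start, and Per1 an E-box at -166. Of 3 Tsc22d3 windows 1 held the single arm (TGTTCT on the printed strand) at -185, and Txnip held a palindrome core at -172 and a FOXO core at -121. Each match is a description of letters in a window, not of binding.
Dusp1 (chr17:26508423-26508722, minus strand): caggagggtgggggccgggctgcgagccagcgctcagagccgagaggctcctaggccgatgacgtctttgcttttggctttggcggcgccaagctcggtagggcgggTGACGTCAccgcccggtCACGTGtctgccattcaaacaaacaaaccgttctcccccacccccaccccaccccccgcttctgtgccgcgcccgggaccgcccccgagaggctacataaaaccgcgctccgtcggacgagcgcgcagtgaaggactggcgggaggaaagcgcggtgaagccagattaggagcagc
Per1 (chr11:69098699-69098998, plus strand): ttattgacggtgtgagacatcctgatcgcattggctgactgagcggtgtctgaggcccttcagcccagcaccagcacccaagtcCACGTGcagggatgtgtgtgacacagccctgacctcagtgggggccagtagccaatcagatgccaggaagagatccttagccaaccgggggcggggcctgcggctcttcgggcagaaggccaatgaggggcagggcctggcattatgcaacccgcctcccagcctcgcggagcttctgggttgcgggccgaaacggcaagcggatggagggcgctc
Tsc22d3 (chrX:140600473-140600772, minus strand): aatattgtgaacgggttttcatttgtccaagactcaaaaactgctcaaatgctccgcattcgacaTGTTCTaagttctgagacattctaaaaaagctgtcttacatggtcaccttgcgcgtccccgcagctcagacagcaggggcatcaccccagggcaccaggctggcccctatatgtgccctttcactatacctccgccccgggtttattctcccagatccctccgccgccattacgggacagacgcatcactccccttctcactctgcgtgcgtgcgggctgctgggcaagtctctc
Txnip (chr3:96557707-96558006, plus strand): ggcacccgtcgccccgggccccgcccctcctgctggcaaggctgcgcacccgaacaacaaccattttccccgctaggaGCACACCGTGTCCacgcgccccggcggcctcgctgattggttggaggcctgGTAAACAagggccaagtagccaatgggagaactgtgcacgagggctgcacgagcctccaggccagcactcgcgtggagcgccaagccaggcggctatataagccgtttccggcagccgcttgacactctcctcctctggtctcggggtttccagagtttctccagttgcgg

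All 11 probes were well above background on all 16 arrays. Levels are the log2 processed intensity minus the array's 75th percentile, so 0 is the 75th percentile of that array, and levels of different probes are not comparable. The sort was checked first: Cd4 lay between 5.86 and 6.19 and Cd3e between 6.66 and 7.14 over the 16 arrays. Of the targeted genes, Ikbkb averaged 2.96 ± 0.06 in nephritic and 3.06 ± 0.22 in untreated IKK2 knockout cells, against 3.30 ± 0.14 and 3.30 ± 0.01 in the matching Cre controls (SD, n = 3 each). Ikbkg averaged -0.65 ± 0.09 in nephritic and -0.84 ± 0.14 in untreated NEMO knockout cells (SD, n = 2 each), against -0.31 ± 0.08 and -0.70 ± 0.17 in the Cre controls (SD, n = 3 each). The position of these probes relative to the floxed exons was not known, so they do not check the deletion. The arrays sat on 3 slides. Slide 1 held all nephritic IKK2 knockout and Cre arrays and 2 untreated IKK2 knockout arrays, slide 2 held the third untreated IKK2 knockout array and all untreated Cre arrays, and slide 3 held all NEMO knockout arrays and nothing else. Therefore slide and genotype cannot be told apart for NEMO, and the nephritis difference of the Cre control runs across slides. Only untreated IKK2 knockout cells lay on both slides 1 and 2, so a fit with slide as a block takes its slide difference from them alone. Nephritic Cre replicate 2 stood apart from all other arrays on the third principal component, at -67.4, and untreated Cre replicate 1 had a coefficient of variation of replicate spots of 21.1%, against 9.09% to 11.6% on the other arrays.

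**Figure D1:**
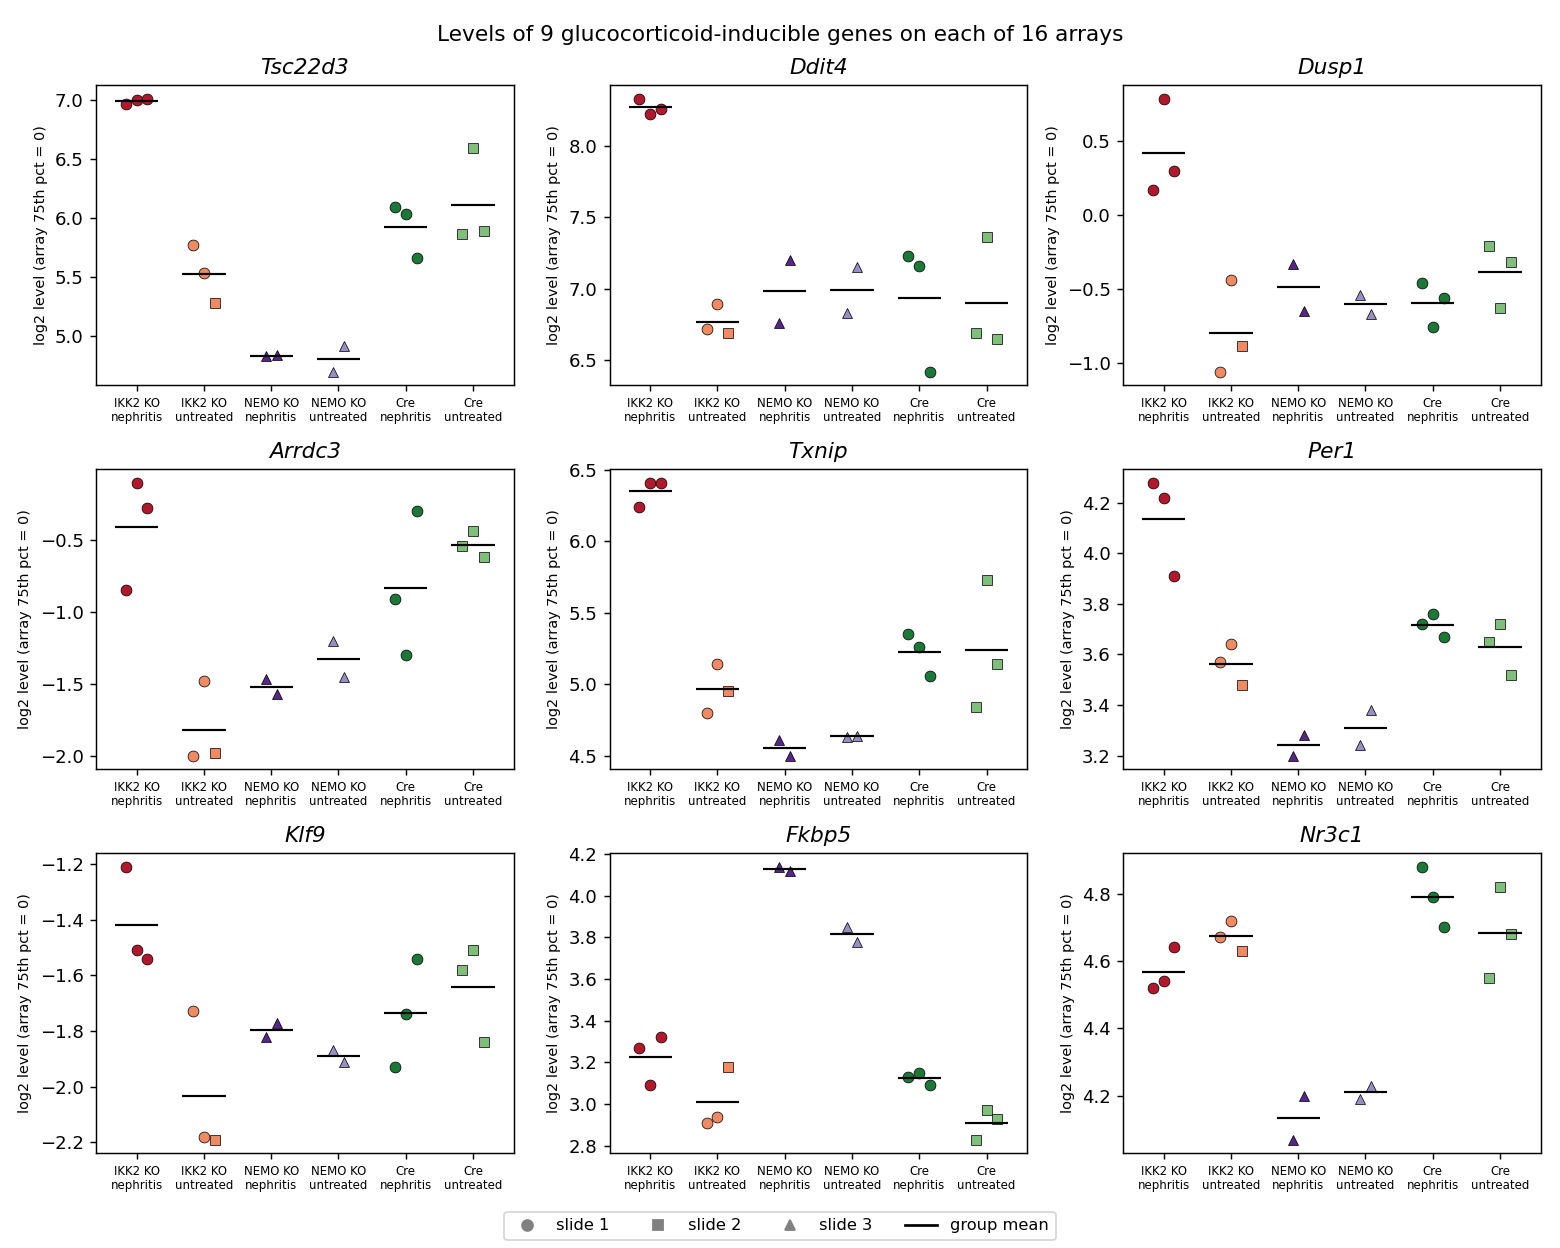
Level of each of the 9 genes on each array (y axis, log2 processed intensity minus the array's 75th percentile) in 6 groups (x axis). Points are arrays, shapes are slides and bars are group means. Tsc22d3, Ddit4, Dusp1, Per1 and Txnip were highest on the 3 nephritic IKK2 knockout arrays, and Fkbp5 was highest and Nr3c1 lowest on the 4 NEMO knockout arrays.

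In the IKK2 knockout, 6 of the 9 genes were higher under nephritis at an adjusted p under 0.05, and none were lower (limma). Over all genes, 0.245% were higher and 0.197% lower at that threshold. As the set was chosen for this response, the calls in this fit and in the next are a description and not a test of it. With slide as a block, Tsc22d3 and Txnip were past the threshold and Ddit4, Dusp1, Arrdc3 and Per1 were not. The differences in that fit were close to those without the block, 1.47 for Ddit4, 1.17 for Dusp1, 1.33 for Arrdc3 and 0.54 for Per1. The gene just inside the threshold was Arrdc3, at 1.41 ± 0.25 on the log2 scale (difference ± SE), and the one just outside was Klf9, at 0.61 ± 0.15.

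Tsc22d3 encodes GILZ, a leucine zipper protein that binds and restrains NF-kB and AP-1. Its level was 6.96, 7.0 and 7.01 on nephritic IKK2 knockout arrays, against 5.77, 5.53 and 5.28 on untreated ones. In nephritic Cre cells it was 6.09, 6.03 and 5.66, against 5.86, 6.59 and 5.89 in untreated Cre cells. The nephritic IKK2 knockout arrays were above every other array and close to each other, while both conditions of the Cre control overlapped. The nephritis difference was 1.46 ± 0.19 in the IKK2 knockout, a 2.76-fold change, and -0.18 ± 0.19 in the Cre control.

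Dusp1 encodes MKP-1, the phosphatase that switches off p38 and JNK. It lay at 0.17, 0.79 and 0.30 in nephritic IKK2 knockout cells, against -1.06, -0.44 and -0.89 in untreated ones. In Cre cells it was -0.46, -0.76 and -0.56 with nephritis, against -0.21, -0.63 and -0.32 untreated. The nephritic IKK2 knockout arrays were again the 3 highest of all, with the spread among them wider than for Tsc22d3. The differences were 1.22 ± 0.19 in the IKK2 knockout and -0.21 ± 0.19 in the Cre control.

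Ddit4 encodes REDD1, an inhibitor of mTORC1 that also answers to hypoxia and energy stress. Its level was 8.33, 8.22 and 8.26 in nephritic IKK2 knockout cells, against 6.72, 6.89 and 6.69 in untreated ones. In Cre cells it was 7.23, 7.16 and 6.42 with nephritis, against 6.69, 7.36 and 6.65 untreated. The remaining 13 arrays lay between 6.42 and 7.36 in no order of group. The nephritis difference was 1.5 ± 0.23 in the IKK2 knockout, 2.84-fold, and 0.03 ± 0.23 in the Cre control.

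Arrdc3 encodes an α-arrestin that draws receptors into degradation, and it behaved differently from the other chosen genes. Its level was -0.85, -0.10 and -0.28 in nephritic IKK2 knockout cells, against -2.00, -1.48 and -1.98 in untreated ones. In Cre cells it was -0.91, -1.30 and -0.30 with nephritis, against -0.54, -0.44 and -0.62 untreated. The nephritic IKK2 knockout arrays therefore overlapped both Cre groups, and it was the untreated IKK2 knockout cells that lay apart from the Cre controls. The difference between IKK2 knockout and Cre cells was 0.42 ± 0.25 under nephritis and -1.29 ± 0.25 without it. For Ddit4 the same 2 differences were 1.34 ± 0.23 and -0.13 ± 0.23, and for Tsc22d3 they were 1.06 ± 0.19 and -0.59 ± 0.19.

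Txnip encodes another α-arrestin, which binds thioredoxin and lowers glucose uptake, and was measured by 2 probes. The brighter probe read 6.24, 6.41 and 6.41 in nephritic IKK2 knockout cells, against 4.80, 5.14 and 4.95 in untreated ones. In Cre cells it read 5.35, 5.26 and 5.06 with nephritis, against 4.84, 5.73 and 5.14 untreated. Its difference was 1.39 ± 0.18 in the IKK2 knockout and -0.02 ± 0.18 in the Cre control. The dimmer probe gave 1.34 ± 0.14 and -0.11 ± 0.14, so both probes had the nephritic IKK2 knockout arrays above all others.

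The remaining members moved less. Per1, a repressor arm of the circadian clock, was 4.28, 4.22 and 3.91 in nephritic and 3.57, 3.64 and 3.48 in untreated IKK2 knockout cells, with a difference of 0.58 ± 0.10 and no overlap between the groups. Klf9, a zinc finger repressor, was -1.21, -1.51 and -1.54 in nephritic and -1.73, -2.18 and -2.19 in untreated IKK2 knockout cells, again without overlap. In Cre cells, Per1 averaged 3.71 ± 0.04 with nephritis and 3.63 ± 0.10 untreated, and Klf9 -1.74 ± 0.19 and -1.64 ± 0.18 (SD, n = 3 each). Fkbp5, the co-chaperone that lowers the receptor's affinity for its hormone and is among its best known targets, averaged 3.23 ± 0.12 in nephritic and 3.01 ± 0.15 in untreated IKK2 knockout cells (SD, n = 3 each). Its difference of 0.22 ± 0.09 there was close to that in the Cre control, 0.21 ± 0.09. Nr3c1 itself averaged 4.57 ± 0.06 in nephritic and 4.67 ± 0.04 in untreated IKK2 knockout cells (SD, n = 3 each), and its second, dimmer probe 0.20 ± 0.02 and 0.23 ± 0.04.

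In the NEMO knockout, the nephritis differences of the 9 genes ran from -0.19 ± 0.30 for Arrdc3 to 0.32 ± 0.10 for Fkbp5, and in the Cre control from -0.30 ± 0.25 for Arrdc3 to 0.21 for Fkbp5. In limma's test, 0 of 9 passed in either direction in either genotype, and Fkbp5 alone had an unadjusted p under 0.05, in both. Over all genes 0.0681% were higher and 0.361% lower in the NEMO knockout, and 2.57% higher and 1.46% lower in the Cre control. Tsc22d3 was 4.83 and 4.84 in nephritic and 4.70 and 4.92 in untreated NEMO knockout cells, and Ddit4 6.76 and 7.20 against 6.83 and 7.15. The pairs overlapped for both genes. As a description, the nephritis response of the IKK2 knockout minus that of the Cre control was 1.65 ± 0.27 for Tsc22d3, 1.47 ± 0.33 for Ddit4, 1.42 ± 0.27 for Dusp1, 1.71 ± 0.35 for Arrdc3 and 1.41 ± 0.26 for Txnip. The choice of the genes fixed the direction of these values. In that contrast 4 of the 9 were past the threshold (Tsc22d3, Dusp1, Arrdc3 and Txnip), beside 1.14% of all genes. The Cre response in it runs across slides, and a slide block rests on untreated IKK2 knockout cells, of which only replicate 3 was on slide 2. With slide as a block Tsc22d3 alone stayed past the threshold, and without both Cre arrays that stood apart none of the 9 did. The values were then 1.89 and 1.82 for Tsc22d3, 1.54 and 1.68 for Ddit4, 1.52 and 1.25 for Dusp1, 1.87 and 1.48 for Arrdc3, and 1.42 and 1.62 for Txnip. The response of the NEMO knockout minus that of the IKK2 knockout was -1.44 ± 0.30 for Tsc22d3 and -1.52 ± 0.36 for Ddit4. There 0 of 9 were past limma's threshold, beside 0.252% of all genes. An unadjusted p under 0.05 was found for 7 of the 9, beside 1580 of all 14688 genes. The IKK2 knockout response behind the choice of the genes is part of this contrast, so nothing is drawn from that count. The comparisons share arrays, and their values are set side by side for that reason.

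**Figure D2:**
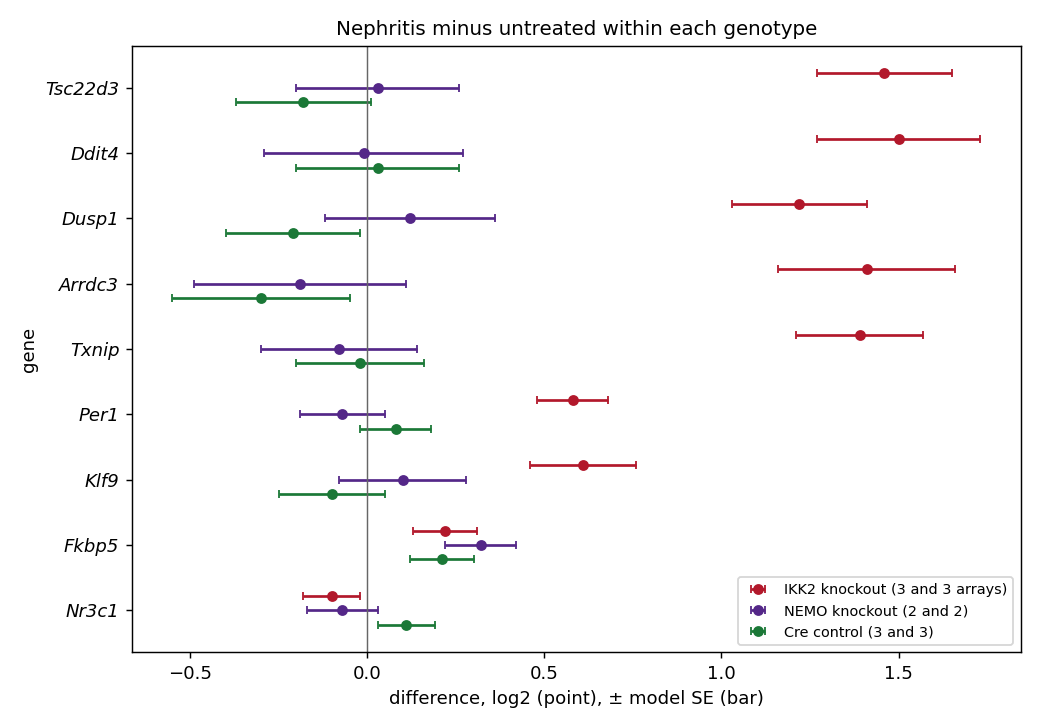
Nephritis minus untreated within each genotype for the 9 genes (x axis, log2 difference, bars ± model SE; y axis, gene). IKK2 knockout points lie between 1.22 and 1.5 for Tsc22d3, Ddit4, Dusp1, Arrdc3 and Txnip, while NEMO knockout and Cre control points for the 9 genes lie between -0.30 and 0.32.

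The IKK2 knockout difference could also be taken within slide 1, which held 3 nephritic and 2 untreated arrays. It was then 1.34 for Tsc22d3 and 1.38 for Txnip, as with slide as a block, and the other 4 differences were those given above for that block. The block and slide 1 alone are therefore not separate checks of these values. None of the 9 genes was past the threshold on slide 1 alone, where 0 genes of any kind were. In limma, 0 of 16 B cell, 0 of 16 myeloid, 0 of 9 dendritic cell, 0 of 7 plasma cell, 0 of 10 CD8 and NK cell and 0 of 6 erythroid markers passed between nephritic and untreated IKK2 knockout cells (3, 4, 1, 0, 4 and 0 at an unadjusted p under 0.05), and 1 of 7 platelet markers was lower. The summed B cell marker level (16 genes, log2) was 4.25 to 4.85 on nephritic and 4.59 to 5.01 on untreated IKK2 knockout arrays, and the myeloid level (16 genes) 6.24 to 7.0 and 6.14 to 6.52. The T cell level (12 genes) was 10.59 to 10.68 and 10.62 to 10.76. In bulk RNA, more cells of a type that expresses a gene and more RNA per cell cannot be told apart.

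Genotype differences were then averaged over both conditions, with nephritic and untreated arrays weighing the same, so they are not differences of untreated cells. Between IKK2 knockout and Cre cells, 2 of 9 passed, where 13.3% of all genes did. Ddit4 was higher by 0.60 ± 0.16 (1.52-fold, limma adjusted p = 0.0308) and Txnip by 0.43 ± 0.13 (1.35-fold, adjusted p = 0.0451). Both averages combine a positive difference under nephritis with a negative one in untreated cells, which for Txnip were 1.13 ± 0.18 and -0.27 ± 0.18. Arrdc3, which did not pass in the average, had the widest difference of the 9 in untreated cells, the -1.29 given above. Arrdc3 was at -0.43 ± 0.17 (adjusted p = 0.125), Dusp1 at 0.30 ± 0.14 (adjusted p = 0.17), Tsc22d3 at 0.24 ± 0.13 (adjusted p = 0.269), and the other 4 between -0.11 and 0.18. Leaving out 1 array at a time gave between 0 and 3 calls, with 0 without IKK2 knockout nephritic replicate 1 or 2, untreated IKK2 knockout replicate 2, or untreated Cre replicate 1 or 3, and 1 without 9 others. Neither call held with slide as a block, where Ddit4 was at 0.57 (adjusted p = 0.118) and Txnip at 0.42 (adjusted p = 0.135). Of 16 B cell markers 14 were higher in IKK2 knockout cells, as were 12 of 16 myeloid and 4 of 9 dendritic cell markers, and the summed B cell level was 3.67 to 4.57 in nephritic and 3.22 to 3.44 in untreated Cre cells. When the fit also held the B cell markers' mean level, Ddit4 was at 0.98 (adjusted p = 0.495) and Txnip at 0.64 (adjusted p = 0.6).

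Between NEMO knockout and Cre cells, 6 of 9 passed, a share near the 59.3% of all genes that did. Fkbp5 was higher by 0.95 ± 0.07, 1.93-fold (limma adjusted p = 3.11e-07). It was 4.14 and 4.12 in nephritic and 3.85 and 3.78 in untreated NEMO knockout cells, against at most 3.15 on any Cre array. Nr3c1 was lower, at -0.56 ± 0.06 (adjusted p = 1.23e-05), with 4.07 and 4.20 in nephritic and 4.19 and 4.23 in untreated NEMO knockout cells, against at least 4.55 on any Cre array. The dimmer Nr3c1 probe was also lower, at -0.70 ± 0.07. The receptor and the co-chaperone that restrains it thus differed in opposite directions, and on both the 4 NEMO knockout arrays did not overlap the 12 others.

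Tsc22d3 was lower in NEMO knockout cells by the widest margin of the 9, at -1.20 ± 0.15, with the Cre level 2.29-fold that of the knockout (limma adjusted p = 2.98e-05). All 4 NEMO knockout arrays were between 4.70 and 4.92, against 5.66 to 6.59 on the 6 Cre arrays. Arrdc3 was at -0.74 ± 0.20 (adjusted p = 0.00633), Txnip at -0.63 ± 0.14 (adjusted p = 0.00237) and Per1 at -0.40 ± 0.08 (adjusted p = 0.00103). Ddit4 (0.07 ± 0.18), Dusp1 (-0.06 ± 0.15) and Klf9 (-0.15 ± 0.12) did not pass. In the deposited matrix Ddit4 (0.50, adjusted p = 0.0312) and Klf9 (-0.26, adjusted p = 0.0429) did, and Klf9 also passed with normexp background correction (-0.29, adjusted p = 0.0164), for 8 and 7 of 9 genes. Glucocorticoid-inducible genes of the set therefore differed in both directions in these cells. Myeloid markers were higher in NEMO knockout cells for 13 of 16 genes, dendritic cell markers for 8 of 9, plasma cell markers for 7 of 7 and CD8 and NK cell markers for 7 of 10, while 6 of 12 T cell markers were lower and 8 of 16 B cell markers were higher. With the B cell markers' mean level in the fit, 3 of the 9 genes passed (Fkbp5, Nr3c1 and Tsc22d3), while the differences of the 3 that no longer did were -0.86 for Arrdc3, -0.42 for Per1 and -0.47 for Txnip. The part of the other markers in these differences was not tested.

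Between the knockouts, NEMO minus IKK2, 6 of 9 passed against 55.7% of all genes. Lower in the NEMO knockout on average were Tsc22d3, at -1.43 ± 0.15 (limma adjusted p = 8.1e-06), Txnip, at -1.06 ± 0.14 (adjusted p = 6.06e-05), and Per1, at -0.57 ± 0.08 (adjusted p = 7.24e-05). So were Ddit4, at -0.53 ± 0.18 (adjusted p = 0.026), and Nr3c1, at -0.45 ± 0.06 (adjusted p = 8.73e-05). For Ddit4 the conditions went opposite ways. NEMO knockout cells averaged 6.98 against 8.27 in IKK2 knockout cells under nephritis, and 6.99 against 6.77 untreated. The Ddit4 call was lost with normexp (-0.45, adjusted p = 0.06), in the deposited matrix (-0.27, adjusted p = 0.239), and without untreated IKK2 knockout replicate 2 (adjusted p = 0.0515) or NEMO knockout untreated replicate 1 (adjusted p = 0.0999) or nephritic replicate 1 (adjusted p = 0.113). Fkbp5 was higher in the NEMO knockout by 0.85 ± 0.07 (adjusted p = 9.62e-07). In neither NEMO comparison can genotype and slide be told apart.

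**Figure D3:**
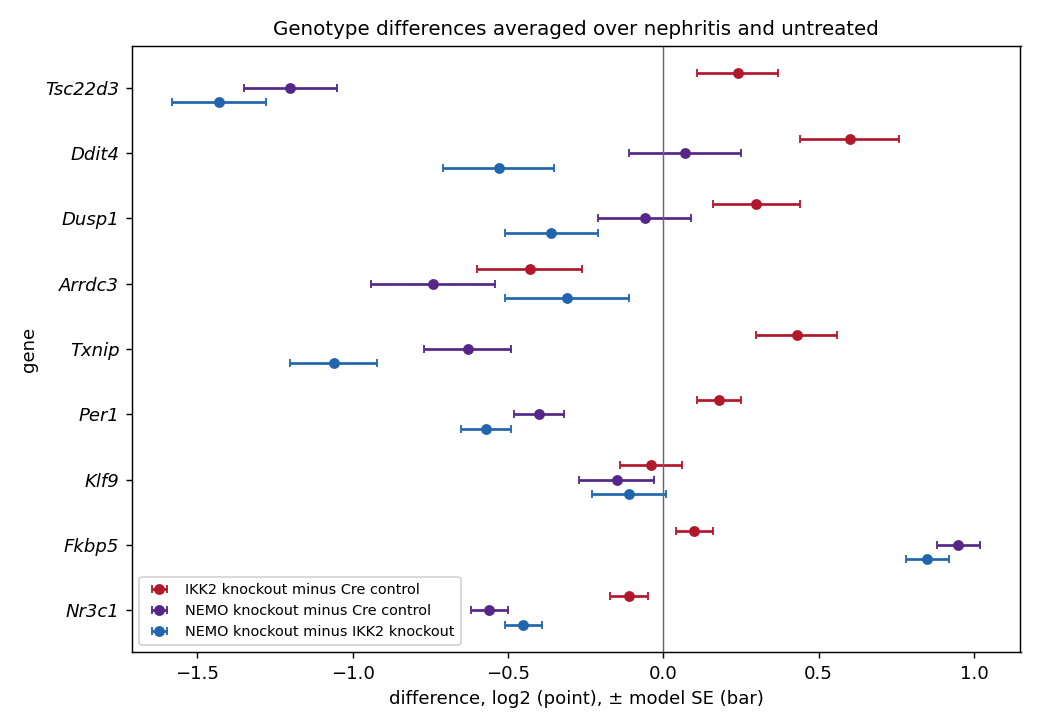
Genotype differences averaged over both conditions for the 9 genes (x axis, log2 difference, bars ± model SE; y axis, gene). Fkbp5 lies at 0.95 and 0.85 in the NEMO knockout against Cre control and IKK2 knockout, and Tsc22d3 at -1.20 and -1.43.

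The order of the 6 group means separated 3 patterns. Tsc22d3, Txnip and Per1 had nephritic IKK2 knockout cells highest, both Cre groups and untreated IKK2 knockout cells in the middle and NEMO knockout cells lowest. For Tsc22d3 the means were 6.99 in nephritic IKK2 knockout, 6.11 in untreated Cre, 5.93 in nephritic Cre, 5.52 in untreated IKK2 knockout, 4.84 in nephritic NEMO knockout and 4.81 in untreated NEMO knockout cells, and the ranges of neighbours were separate at the first and the fourth step of that order. Ddit4 and Dusp1 had nephritic IKK2 knockout cells highest, and no neighbours among the other 5 groups had separate ranges. Fkbp5 and Nr3c1 were set by the NEMO groups, and over the 16 arrays they correlated at r = -0.88. Tsc22d3 correlated at 0.94 with Txnip and 0.93 with Per1, but at 0.73 with Ddit4 and 0.62 with Nr3c1. These are descriptions over 16 arrays that share groups and slides.

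By the same measure, the genes outside the set most like Tsc22d3 were Zfp36l2 (r = 0.940), Zfp1 (r = 0.939), Zkscan5 (r = 0.923), Pias2 (r = 0.921) and Cd69 (r = 0.920). Those most like the mean of Tsc22d3, Ddit4, Dusp1 and Arrdc3 were Zfp36l2 (r = 0.959), Bbc3 (r = 0.891), Stxbp4 (r = 0.887), Fkbp7 (r = 0.869) and Srpk2 (r = 0.846). Zfp36l2, which encodes an RNA-binding protein that destabilises messenger RNA, led both lists. Its level was 7.16, 7.25 and 7.29 in nephritic and 5.74, 6.04 and 5.64 in untreated IKK2 knockout cells, with no overlap. Bbc3, which encodes the pro-death protein PUMA, had a nephritis difference of 1.30 ± 0.19 in the IKK2 knockout and -0.04 ± 0.19 in the Cre control. As these genes were picked for their likeness, no test of them is given here. Cd69 is also an immediate early gene and is tested below with that list. Its values there are not separate support for the pattern.

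A list of 30 other genes known to be induced by glucocorticoids in T cells or other tissues, of which 29 were measured, was tested for the nephritis response. The list was drawn up with earlier results of these data known. In the IKK2 knockout, 3 of 29 rose and none fell, with a median difference of 0.10 against 0.01 over all genes. Over all genes, 0.245% were higher and 0.197% lower at the same threshold. Cxcr4, the chemokine receptor that holds lymphocytes in bone marrow, rose by 1.10 ± 0.14 (limma adjusted p = 0.0088), with 2.10, 1.99 and 1.87 in nephritic and 0.67, 0.98 and 0.99 in untreated IKK2 knockout cells. Pik3ip1, an inhibitor of PI3 kinase that is also on the FOXO list, rose by 0.83 ± 0.13 (adjusted p = 0.0215) and was 5.45, 5.46 and 5.42 in nephritic and 4.88, 4.46 and 4.52 in untreated IKK2 knockout cells. Nfkbia, which encodes IκBα, rose by 0.58 ± 0.07 (adjusted p = 0.0088), with 5.76, 5.75 and 5.70 in nephritic and 5.04, 5.19 and 5.23 in untreated IKK2 knockout cells. It stayed below the lowest Cre array, at 5.94, in both conditions. The other 26 genes did not pass. With slide as a block, Pik3ip1 had an adjusted p of 0.0653 at a difference of 0.78. Slide 1 alone gave 1.16 for Cxcr4, 0.78 for Pik3ip1 and 0.62 for Nfkbia, in a fit that called 0 genes of any kind.

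In the Cre control 4 of the 29 rose and none fell, with a median of 0.09 against 0.10 over all genes: Mt1, a metallothionein (2.44 ± 0.30, limma adjusted p = 0.00572), Cebpd, a transcription factor of acute phase and myeloid genes (2.21 ± 0.39, adjusted p = 0.0157), Il10 (1.64 ± 0.31, adjusted p = 0.0209) and Nfil3 (0.74 ± 0.17, adjusted p = 0.0382). B cell markers were higher in nephritic Cre cells for 5 of 16 genes, myeloid markers for 3 of 16, plasma cell markers for 2 of 7 and erythroid markers for 2 of 6, and the slides differed, and their part in these 4 differences was not tested. Of all genes, 2.57% were higher and 1.46% lower in nephritic Cre cells at that threshold. With slide as a block none of the 4 passed, at 2.67 for Mt1, 2.87 for Cebpd, 1.30 for Nfil3 and 0.59 for Il10. Il10 was dim, at -4.12, -3.36 and -3.45 in nephritic and -5.53, -5.33 and -5.00 in untreated Cre cells. The net signal of negative controls was 40.5 to 44.1 on nephritic and 19.5 to 22.4 on untreated Cre arrays, and its part was not tested. With 1 array left out, the count was 1 without untreated Cre replicate 1 and 2 without untreated Cre replicate 2 or nephritic Cre replicate 3. In the NEMO knockout, which lay on 1 slide, Hif3a alone of the 29 passed, falling by 1.0 ± 0.14 (adjusted p = 0.00927). That call was lost without untreated replicate 2 or either nephritic replicate of the NEMO knockout. At an unadjusted p under 0.05 there were 8 of the 29, beside 392 higher and 545 lower of all 14688 genes. Past the adjusted threshold, 0.0681% of all genes were higher and 0.361% lower in the NEMO knockout. The 3 genes called in the IKK2 knockout did not pass there, at 0.76 ± 0.18 for Cxcr4, 0.21 ± 0.09 for Nfkbia and -0.48 ± 0.16 for Pik3ip1. The difference between responses of IKK2 knockout and Cre cells passed for 3 of the 29: Cxcr4 (1.24 ± 0.20, adjusted p = 0.0315), Pik3ip1 (0.91 ± 0.18, adjusted p = 0.0452) and Mt1 (-2.34 ± 0.43, adjusted p = 0.0381). Of all genes, 1.14% passed in that contrast.

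**Figure D4:**
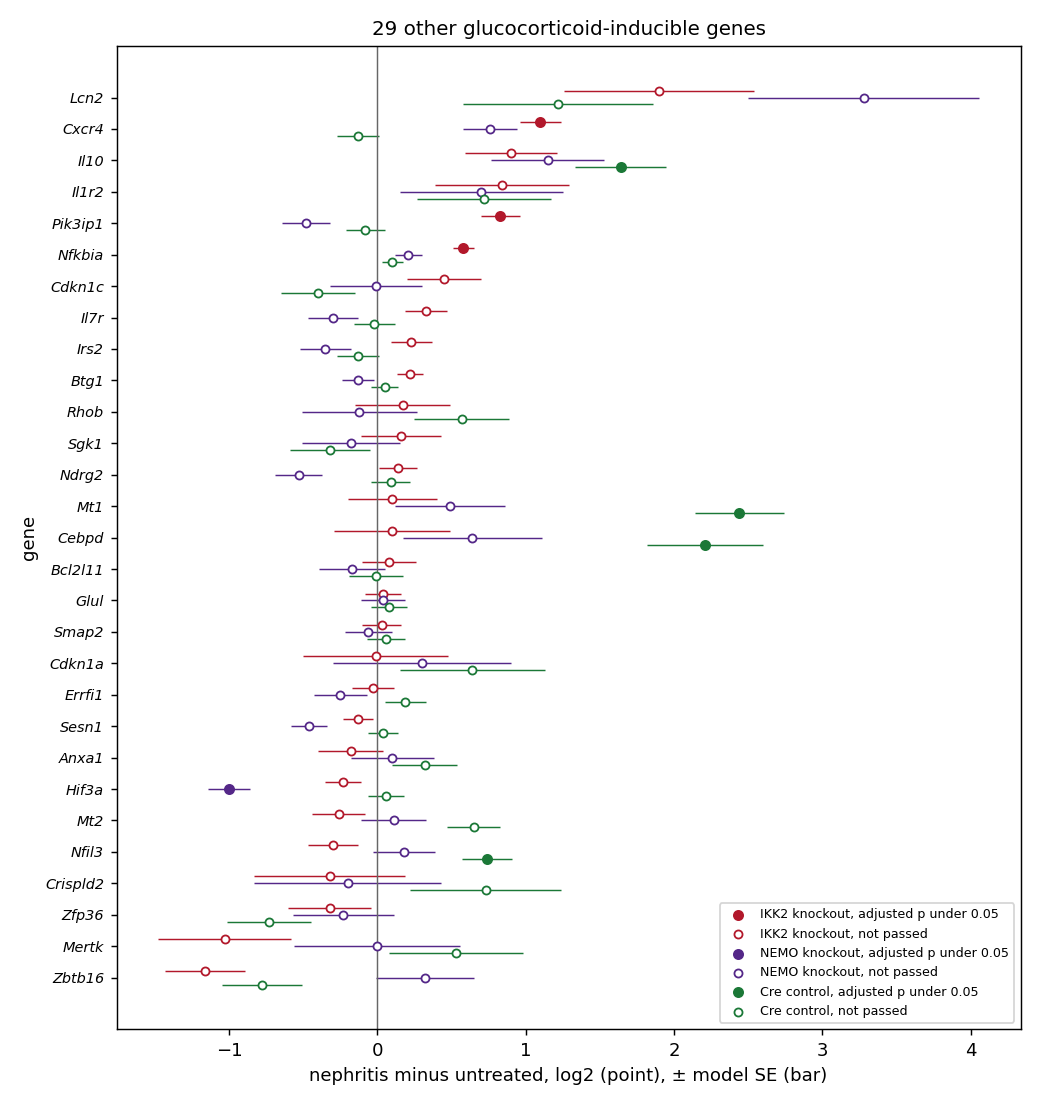
Nephritis minus untreated for 29 other glucocorticoid-inducible genes (x axis, log2 difference, bars ± model SE; y axis, gene) in each genotype. Filled points passed an adjusted p of 0.05: Cxcr4, Pik3ip1 and Nfkbia in the IKK2 knockout, Hif3a in the NEMO knockout, and Mt1, Cebpd, Il10 and Nfil3 in the Cre control.

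Proteins that hold or assist the receptor were measured by 17 genes. Under nephritis in the IKK2 knockout 2 of 17 fell and none rose, with a median of -0.16 against 0.01 over all genes. Of all genes, 0.197% were lower and 0.245% higher there. Stip1, which hands clients between Hsp70 and Hsp90, fell by 0.66 ± 0.09 (limma adjusted p = 0.0088), to 2.27, 2.08 and 2.17 in nephritic cells, against 2.89, 2.72 and 2.88 in untreated IKK2 knockout cells. Fkbp4, the immunophilin that takes the place of Fkbp5 when the receptor binds its hormone, fell by 0.65 ± 0.10 (adjusted p = 0.0178), to 0.94, 0.71 and 0.81 in nephritic cells, against 1.55, 1.48 and 1.38 in untreated IKK2 knockout cells. For both genes the nephritic IKK2 knockout arrays overlapped the nephritic Cre arrays, and the untreated IKK2 knockout cells were above every other array. In the Cre control, Fkbp4 rose by 0.46 ± 0.10 (adjusted p = 0.0291).

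Of 11 cytokine genes that glucocorticoids are known to repress, none passed under nephritis in the IKK2 knockout in limma (3 had an unadjusted p under 0.05), with a median of -0.21. Averaged over both conditions, Il4 (-2.68 ± 0.24, adjusted p = 9.89e-05), Il2 (-1.66 ± 0.21, adjusted p = 0.000544) and Lta (-0.58 ± 0.07, adjusted p = 0.000367) were lower in IKK2 knockout than in Cre cells. In that comparison 13.3% of all genes passed in either direction, and with the B cell covariate the 1949 genes called became 16. In NEMO knockout cells 9 of 11 were higher and 1 lower than in Cre cells, with a median of 2.27 against -0.10 over all genes, led by Il17a (4.21 ± 0.43) and Ifng (3.70 ± 0.38). Of all genes, 59.3% passed in either direction there, and genotype and slide cannot be told apart.

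Further lists cover other inputs to the same genes. Of 20 immediate early genes, Cd69 alone passed under nephritis in the IKK2 knockout, rising by 1.04 ± 0.12 (limma adjusted p = 0.0088). There 4 of 20 had an unadjusted p under 0.05. Past the adjusted threshold, 0.245% of all genes were higher and 0.197% lower in that comparison. Without adjustment 1072 of 14688 genes were higher and 1119 lower. In the Cre control and the NEMO knockout 0 of 20 passed (4 and 3 at an unadjusted p under 0.05). Of 17 FOXO-dependent T cell genes, Pik3ip1 alone passed in the IKK2 knockout, and it rose (5 of 17 had an unadjusted p under 0.05). Of 15 clock genes other than Per1 and of 15 stress genes, none passed there (0 and 4 at an unadjusted p under 0.05), with medians of -0.02 and 0.16. In NEMO knockout cells, 13 of 17 FOXO-dependent genes were lower than in Cre cells and none higher, led by Ccr7 (-2.65 ± 0.11), and 9 of 15 clock genes were higher and 4 lower. Of all genes, 59.3% passed in either direction in that comparison, in which genotype and slide cannot be told apart. Among the paralogs of the 9 genes, Fkbp4 alone passed under nephritis in the IKK2 knockout (3 of 24 had an unadjusted p under 0.05).

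**Figure D5:**
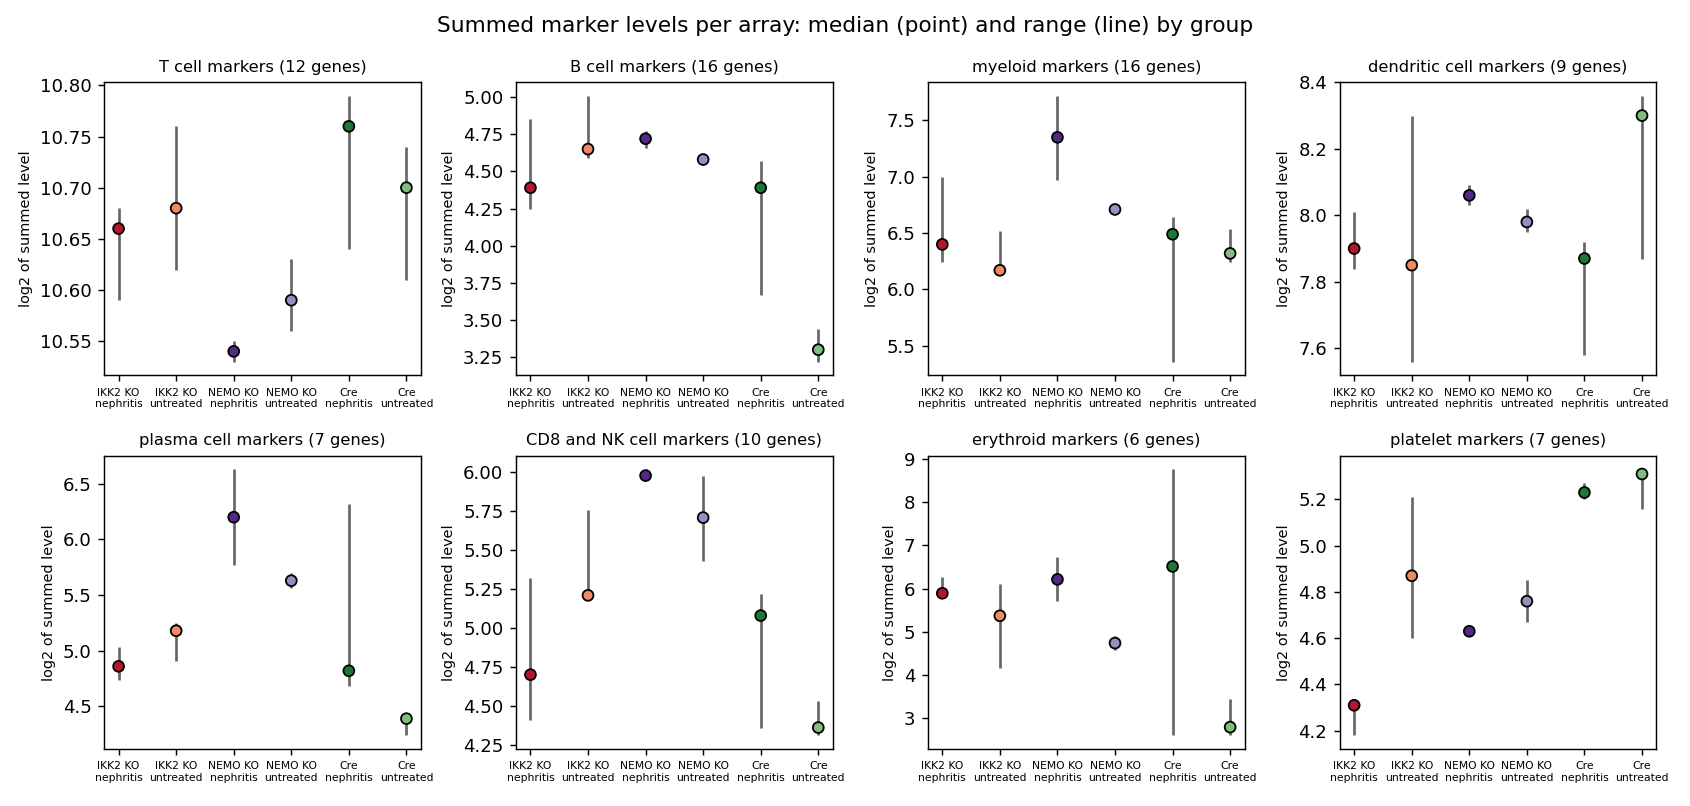
Summed level of 8 marker lists per array (y axis, log2 of the summed levels), with the median (point) and range (line) of each of 6 groups (x axis). B cell markers were 4.25 to 4.85 in nephritic and 4.59 to 5.01 in untreated IKK2 knockout cells and lowest, at 3.22 to 3.44, in untreated Cre cells.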

How the data were processed

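Transcripts were measured on 16 one-colour Agilent arrays. The authors deposited scanner output. Its linear intensity values had background removed by Agilent Feature Extraction 10.7.3.1, per the file headers (10.5 per the submitters' processing notes). A matrix of log2 values that the authors also deposited, made in a way not given in the sources used here, was an alternative only. Control spots and 103 to 246 outlier spots per array were left out, no spot was saturated, and 48.9% to 59.8% of spots were well above background. Spots of a probe were averaged, log2 taken and each array's 75th percentile subtracted. Of 55681 probes, 27248 had a symbol through the RefSeq table (GRCm38.p6; the headers name mm9). Each gene was represented by its brightest probe well above background on at least 2 arrays. The means of 6 groups were fitted to 16 arrays with limma 3.58.1 in R 4.3.3, and two-sided p-values received the Benjamini-Hochberg correction for 14688 genes in each comparison (threshold 0.05). Tables and plots used Python 3.11.15, numpy 2.4.6, pandas 2.3.3 and matplotlib 3.10.9. The fit was tested on simulated data. Alternatives were normexp (offset 50) on the median spot and background signals, since mean signals were not used here, no filter on dim probes, a percentile over probes detected on all arrays, the deposited matrix, slide or replicate number as a block, only the arrays compared, the mean of a gene's probes, a B cell marker covariate, and leaving out arrays. Replicate numbers did not pair samples: same-numbered deviations correlated at -0.196 to 0.127 over 36 pairs. The number of arrays limits precision. The 9 genes and all lists were chosen with earlier results of these data known. Named genes were all member probes, up to 4 called genes per list in the comparison described, those of largest difference first, and the 5 most like genes for each of both patterns.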

Additional observations from a re-analysis of the deposited data

Results flagged for a closer look

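On the lists other than cell markers, 6 genes outside the set responded to nephritis differently in IKK2 knockout and Cre cells. This was a test of the difference itself (limma), which 1.14% of all genes passed. The response of the IKK2 knockout minus that of the Cre control was 1.24 for Cxcr4 (adjusted p = 0.0315), 0.94 for Cd69 (adjusted p = 0.0381), 0.91 for Pik3ip1 (adjusted p = 0.0452), -1.11 for Fkbp4 (adjusted p = 0.0132), -0.82 for Stip1 (adjusted p = 0.0255) and -2.34 for Mt1 (adjusted p = 0.0381). With slide as a block Fkbp4 and Stip1 passed (adjusted p = 0.0479 each) and the other 4 did not, at differences of 1.02 for Cd69 (adjusted p = 0.0747), 1.01 for Pik3ip1 (adjusted p = 0.0945), 1.12 for Cxcr4 (adjusted p = 0.0943) and -2.49 for Mt1 (adjusted p = 0.0897). Without both Cre arrays that stood apart, a setting chosen after seeing the data, Mt1 alone passed, at -2.89 (adjusted p = 0.000868).

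Of the members, 3 moved in opposite directions on every nephritic array, each set against the mean of the untreated arrays of its own genotype. For Tsc22d3 (difference of responses 1.65) and Dusp1 (1.42), all nephritic IKK2 knockout arrays were above and all nephritic Cre arrays below that mean. For Tsc22d3 the Cre direction rested on 1 array. Untreated Cre replicate 2 was at 6.59 and replicates 1 and 3 at 5.86 and 5.89, and without replicate 2 the Cre response was 0.05. For Nr3c1 (-0.21), all nephritic IKK2 knockout arrays were below and all nephritic Cre arrays above the untreated mean on the brighter probe. The dimmer Nr3c1 probe gave 0.05 for the difference of responses and -0.08 in the Cre control, where the brighter probe was at 0.11, at -0.02 with normexp and at -0.11 in the deposited matrix. Opposite movement of the arrays was itself not tested, and as the members were chosen for their nephritis response, no p is given for these differences.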

How the results depend on the processing

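The 2 calls among the 9 genes between IKK2 knockout and Cre cells became 0 without the filter on dim probes, 0 with slide as a block, 0 with the B cell covariate, 0 without both Cre arrays that stood apart (chosen after seeing the data) and 1 with only the arrays compared, and ranged from 0 to 3 when 1 array was left out. The 6 calls between NEMO knockout and Cre cells became 3 with the B cell covariate, 7 with normexp and 8 in the deposited matrix, and the 6 between the knockouts became 5 in each of the last 2 settings. Slide could not be fitted there, since all NEMO knockout arrays shared 1 slide. The 3 other inducible genes called under nephritis in the IKK2 knockout became 0 with only the arrays compared and 0 on slide 1 alone (chosen after seeing the data), fits with fewer arrays in which 0 genes passed at all. The 4 in the Cre control became 2 with normexp, 0 with slide as a block, 0 with only the arrays compared, 1 with the B cell covariate and 2 without both Cre arrays, and ranged from 1 to 5 when 1 array was left out. The 1 in the NEMO knockout became 0 with normexp, the deposited matrix, only the arrays compared or the mean of a gene's probes, and ranged from 0 to 1 when 1 array was left out. The cause of these changes was not tested. Counts over all genes moved too: 592 in the Cre control's nephritis comparison became 167 with normexp and 2 with slide as a block, 65 in the IKK2 knockout became 148 with the other percentile and 30 with the replicate block, 63 in the NEMO knockout became 13 with normexp, and 1949 between IKK2 knockout and Cre cells became 16 with the B cell covariate.

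Replicate numbers gave no pairing, and the replicate block left the calls among the 9 genes at 2, 6 and 6 in the 3 genotype comparisons. Values that changed sign were all small: with the B cell covariate Nr3c1 was at 0.02 between IKK2 knockout and Cre cells and Dusp1 at 0.03 between NEMO knockout and Cre cells, and Ddit4 was at -0.04 between NEMO knockout and Cre cells with the replicate block. With 1 array left out, Klf9 ranged from -0.11 to 0.01 between IKK2 knockout and Cre cells, and between NEMO knockout and Cre cells Ddit4 ranged from -0.06 to 0.18 and Dusp1 from -0.13 to 0.02. Of the single-gene genotype values, 631 kept direction and side of the threshold, 37 no longer passed, 7 newly passed and 9 changed sign. Of the nephritis values, 692 moved by less than the spread between replicates and 19 by more. Among the latter were IKK2 knockout differences that fell with normexp: Dusp1 from 1.22 to 0.97, Arrdc3 from 1.41 to 0.99 and Klf9 from 0.61 to 0.38. Per1 in the IKK2 knockout went from 0.58 to 0.69 without nephritic replicate 3. The rest were in the Cre control.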
